A study of Mus musculus with 4 samples.

Results

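The genes described here are 39 genes that type I and type II interferon switch on, read in B220 cells, that is B-lineage cells marked by B220, a form of the surface protein CD45. They were chosen by name from the gene names of the array design, and each was read at its brightest probe by the mean over 4 arrays. They make up 39 of the 28307 genes or names on the array. The cells came from naive Mef2c knockout (KO) mice and from naive C57BL/6 mice, the wild type (WT), and were taken freshly from bone marrow and from spleen, with no treatment named. The 4 groups were marrow KO, marrow WT, spleen KO and spleen WT, with 1 Agilent 1-colour array each. Mef2c is a transcription factor of muscle, nerve and blood cells. The sources used here do not give the deleted part of Mef2c, the cells in which it was deleted, the strain background of the KO, how the cells were isolated, or the number, age and sex of the animals. Since each group is 1 array, a difference within a tissue carries no replicate error, and precision is limited by this number of arrays.

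Interferons are secreted alarm signals. Type I interferons bind a receptor that activates the kinases Jak1 and Tyk2, and their signal reaches the nucleus through a complex with Stat2 and Irf9 that binds the interferon-stimulated response element (ISRE) in promoters. Type II interferon, made by T and NK cells, works through its own receptor, Jak1 and Jak2, and its signal ends at the gamma-activated site (GAS). The induced genes sense viral nucleic acid, block viral replication, attack the vacuoles of parasites and bacteria, and feed peptides to MHC class I. B cells carry both receptors, and a low level of these genes in naive animals is usual.

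Facts of the 4 arrays bear on every value below. The 75th percentile of the signal was 1008.5 and 960.9 in marrow KO and WT and 519.9 and 970.4 in spleen KO and WT, and gene spots passed the background mark in 59.28% of cases on spleen KO and in 69.05% to 71.98% on the other arrays. A level is a log2 signal minus that percentile of its array, so an equal signal counts for more on spleen KO. A difference is a log2 level minus another, and 2-fold is 1 on this scale. The SD between repeated spots of a probe was 0.0676 to 0.0805 (log2, median per array), which covers spotting and not animals. Both marrow arrays were on slide 1 and both spleen arrays on slide 2, so slide and tissue cannot be told apart. KO was at position 1 of each slide, which likewise cannot be told apart from genotype. The Mef2c probe was not lower in KO, with signals of 5511 and 4218 in marrow KO and WT and of 11840 and 8534 in spleen KO and WT. The sources used here do not say where that probe lies relative to the deleted part, so this reading does not check the labels. The Y-linked genes Ddx3y, Eif2s3y, Kdm5d and Uty were above background on 3 arrays and not on spleen KO, where Ddx3y had a signal of 3.972 against 1193 on spleen WT, while Xist, which is expressed from the inactive X chromosome, was above background on all 4. Spleen KO therefore stands apart from the other 3 arrays, marrow KO among them, in Y-linked genes too, and the part of sex in the differences was not tested. All 10 B cell markers were well above background on all 4 arrays.

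Of the 39 genes, 38 were well above background on all 4 arrays. Oas1g, a member of the oligoadenylate synthetase family, was the exception, with signals of 3.8, 3.5, 4.1 and 4.4, and has no level here. The probes of the 38 genes cover a wide range of brightness, but levels of different probes are not compared, since a probe's brightness depends on its sequence. Levels differ between the arrays in opposite ways for different families. The guanylate-binding protein Gbp3 stood highest on spleen KO, while the transcription factors Irf7 and Stat2 and the peptide transporter Tap1 stood highest on spleen WT.

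**Figure D1:**
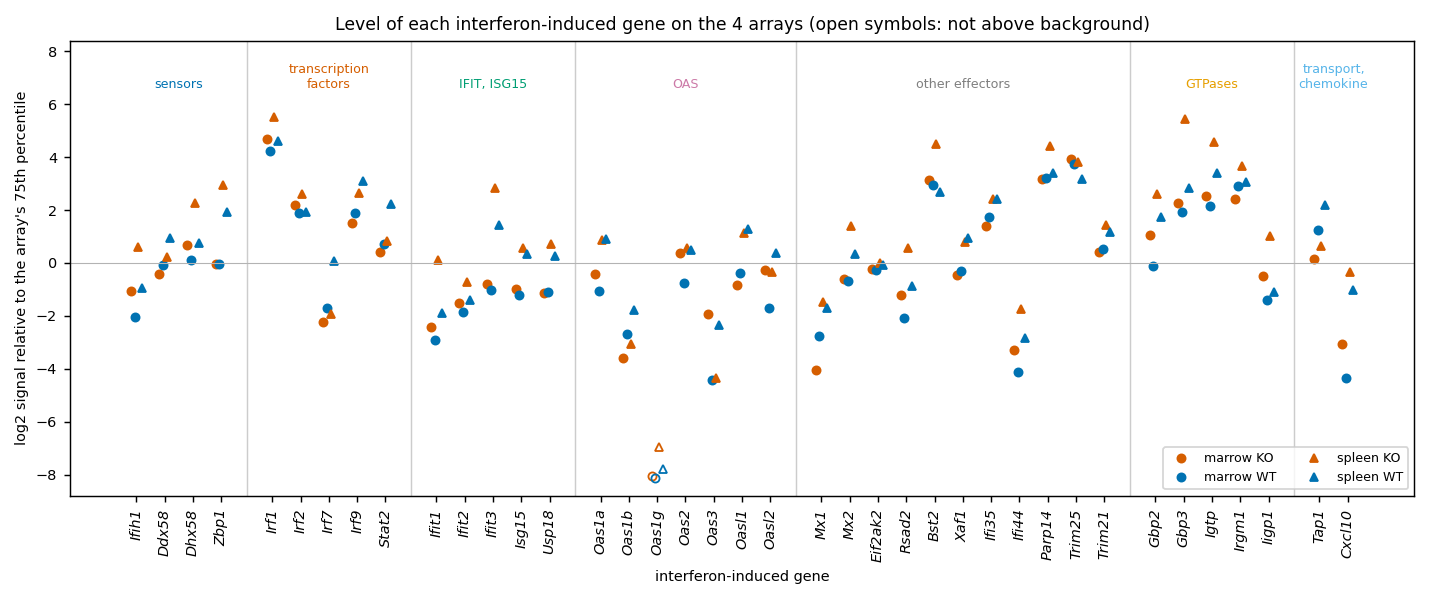
Level of each of the 39 genes on the 4 arrays, as log2 signal relative to the 75th percentile of the array, with 1 point per array and no error, since each group has 1 array. Circles are marrow and triangles spleen, orange is KO and blue WT, and genes stand in groups by role, so that heights are to be compared within a gene only. Gbp3 at 5.46 on spleen KO against 2.82 on spleen WT and Irf7 at -1.92 against 0.09 show the range of directions in the spleen.

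The promoters of 30 of the 39 genes were found in RefSeq (build GRCm38.p6), as windows of 300 bases, 250 before to 50 after the start of the gene. They were searched on both strands for the core of the ISRE, written as GAAA, 2 bases of any kind and GAAA again, and for the GAS, TTCNNNGAA. The ISRE core was present in 19 of the 30 genes, or 63.3%, and in 3.99% of 27025 genes with such a window. The GAS letters were present in 8 of the 30 genes, or 26.7%, and in 9.55% of all genes. Neighbouring ISRE matches can overlap and were counted separately. A match is a description of the letters and does not show that a factor binds there. The promoters below are those of 3 genes that stood out in the comparisons (Ifit1, Gbp3 and Oas3), of Isg15, which lay near its WT level, and of Tap1, which has no match. Capitals mark the ISRE core on either strand, where it reads as GAAA blocks or, on the opposite strand, as TTTC blocks.
Ifit1, chr19:34640639-34640938, strand plus: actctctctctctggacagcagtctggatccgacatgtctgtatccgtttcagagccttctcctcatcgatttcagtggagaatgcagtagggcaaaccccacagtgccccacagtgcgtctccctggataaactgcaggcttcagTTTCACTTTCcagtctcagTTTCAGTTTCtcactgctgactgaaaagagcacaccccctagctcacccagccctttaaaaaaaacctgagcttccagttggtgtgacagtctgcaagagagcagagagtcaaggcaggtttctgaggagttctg
Gbp3, chr3:142559794-142560093, strand plus: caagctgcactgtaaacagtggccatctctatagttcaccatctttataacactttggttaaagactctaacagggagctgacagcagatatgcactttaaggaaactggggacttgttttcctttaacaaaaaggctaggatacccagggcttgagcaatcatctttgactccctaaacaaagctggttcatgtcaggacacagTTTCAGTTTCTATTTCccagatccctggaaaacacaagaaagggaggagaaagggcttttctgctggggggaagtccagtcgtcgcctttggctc
Oas3, chr5:120777610-120777909, strand minus: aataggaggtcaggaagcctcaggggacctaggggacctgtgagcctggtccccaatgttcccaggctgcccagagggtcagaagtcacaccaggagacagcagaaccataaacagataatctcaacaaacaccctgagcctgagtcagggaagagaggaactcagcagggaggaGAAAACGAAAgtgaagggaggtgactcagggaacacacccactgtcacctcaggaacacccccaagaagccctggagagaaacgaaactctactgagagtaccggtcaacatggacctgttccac
Isg15, chr4:156200769-156201068, strand minus: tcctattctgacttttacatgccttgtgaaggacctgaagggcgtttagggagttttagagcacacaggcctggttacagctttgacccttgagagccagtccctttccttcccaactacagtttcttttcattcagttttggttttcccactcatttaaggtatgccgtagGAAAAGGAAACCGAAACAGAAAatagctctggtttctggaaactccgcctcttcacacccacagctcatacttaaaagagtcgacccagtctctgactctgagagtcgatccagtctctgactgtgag
Tap1, chr17:34187306-34187605, strand plus: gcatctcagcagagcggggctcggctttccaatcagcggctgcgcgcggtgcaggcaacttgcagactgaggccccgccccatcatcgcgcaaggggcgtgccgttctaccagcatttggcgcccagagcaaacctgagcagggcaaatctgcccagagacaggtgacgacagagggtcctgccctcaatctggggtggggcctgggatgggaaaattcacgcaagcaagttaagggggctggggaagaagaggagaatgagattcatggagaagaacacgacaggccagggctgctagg

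The matches lie close to the start of these genes. In Ifit1 they begin 104 and 85 bases before the start, in Gbp3 45 and 39 bases before it, in Oas3 75 bases before it and in Isg15 78, 72 and 66 bases before it. Gbp3 has another start in RefSeq whose window holds no match. Of the 19 genes with a match, 18 were measured, and 7 of them were at least 2-fold higher and 2 at least 2-fold lower in spleen KO than in spleen WT, with a median difference of 0.69, against 19.8% and 14.4% of all genes and an all-gene median of 0.27. Of the 11 measured genes without a match, 1 was higher and 2 lower, and their median was -0.15. In marrow the 18 genes had 3 higher and 0 lower with a median of 0.33, and the 11 genes had 1 higher and 1 lower with a median of -0.14, against 8.35% and 4.9% of all genes and an all-gene median of -0.06. These counts describe the 2 subsets, and their difference was not tested.

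The comparison of marrow KO with marrow WT sets the interferon-induced genes on the KO marrow array beside those on the WT marrow array. Of 38 genes, 5 were at least 2-fold higher and 2 at least 2-fold lower, and 24 lay above 0, with a median of 0.20 against -0.06 over all genes. In the background of this comparison, 8.35% of all 21232 measured genes passed 2-fold upward and 4.9% downward. Of the 5 genes that were higher, 3 were of the oligoadenylate synthetase family, of which 6 genes were measured. Members of this family make short oligoadenylates that activate RNase L, which cuts viral and cellular RNA.

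Oas3 had signals of 265 and 45.1 in marrow KO and WT and of 25.4 and 190 in spleen KO and WT. It was 5.59-fold higher in marrow KO, a difference of 2.48. Oasl2, an oligoadenylate synthetase-like protein, had signals of 843, 292, 409 and 1248 on marrow KO, marrow WT, spleen KO and spleen WT, and was higher by 1.46 in marrow KO. Oas2, which makes longer chains, had signals of 1310, 574, 759 and 1362 in the same order and was higher by 1.12. The other Oas2 probe was above background on no array, and by the median over its probes Oas2 was at 0.34 in marrow. For these genes marrow KO was the brighter marrow array, and in the spleen Oas3 and Oasl2 had the opposite order. Oas1a differed by 0.63, Oasl1, which in the mouse restrains translation of Irf7, by -0.46 and Oas1b by -0.93. Oas1b protects against flaviviruses, and C57BL/6 mice carry a stop codon in it. The Oas1 genes lie in a cluster of near copies, so which copy a probe reads is uncertain.

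Outside the family, Cxcl10, the chemokine that draws CXCR3-bearing T cells, had signals of 120 and 46.6 in marrow KO and WT and of 414 and 473 in spleen KO and WT and was higher by 1.29 in marrow KO. Gbp2, a GTPase that coats pathogen vacuoles, had signals of 2083, 898, 3173 and 3245 in the same order and was higher by 1.14. Ifih1, the sensor of long double-stranded RNA also called MDA5, lay just under 2-fold at 0.997, with signals of 487 and 233 in marrow. Iigp1 followed at 0.91, Rsad2, which makes a chain-terminating nucleotide, at 0.86 and Ifi44 at 0.83. By the median over its probes Rsad2 was at -0.04 in marrow.

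Mx1 and Tap1 were lower in marrow KO. Mx1, a dynamin-like GTPase against influenza virus that carries a deletion in C57BL/6, had signals of 60.5 and 140 in marrow KO and WT and of 186 and 295 in spleen KO and WT, and a marrow difference of -1.28. Tap1, which carries peptides into the endoplasmic reticulum for MHC class I, had signals of 1116, 2273, 812 and 4404 in the same order, and a marrow difference of -1.1. KO was the dimmer array of its tissue for Tap1 in marrow and in spleen alike. The transcription factors all lay within 2-fold in marrow, from -0.55 for Irf7 to 0.44 for Irf1, with a median of -0.31. The Ifit and Isg15 group lay between -0.06 and 0.51, and Isg15 itself, the ubiquitin-like protein attached to new proteins during infection, was at 0.22.

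Markers of other cells differed on the same marrow arrays. Of all genes, 8.35% were at least 2-fold higher and 4.9% at least 2-fold lower in marrow KO. Of 11 neutrophil markers, 10 were at least 2-fold higher in marrow KO, and their summed level was 1420 against 437 in marrow WT, in units of the 75th percentile signal. Of 13 macrophage and monocyte markers, 3 were higher, with summed levels of 36.5 and 22.9. The plasmacytoid dendritic cell list, whose cells are strong producers of type I interferon, had 1 of 12 markers higher, close to the share of all genes. Its summed levels were 167 and 261. That list holds Bst2, which is also among the 39 genes. Its marker Ly6d, with signals of 76510 in KO and 125400 in WT, weighed most in these sums, and Siglech was at 0.12. B cell markers summed to 327 in KO and 440 in WT, with 4 of 10 lower, and T and NK cell markers to 8.95 and 6.06. No marker of any list was at 0, and all were above background on both marrow arrays. Their part in the interferon-induced genes was not tested, and fewer cells of a type and less RNA per cell cannot be told apart.

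The comparison of spleen KO with spleen WT does the same for the B220 cells of the spleen. Of 38 genes, 13 were at least 2-fold higher and 5 at least 2-fold lower, and the median was 0.61 against 0.27 over all genes. The background of this comparison is wide, with 19.8% of 19811 measured genes at least 2-fold higher and 14.4% at least 2-fold lower. The share of the 38 genes that was higher exceeds that background and the share that was lower is close to it, without a test. The median of all genes lay at 0.27 itself, and relative to it 8 of the 38 genes were at least 2-fold higher and 6 at least 2-fold lower, against 13% and 19.3% of all genes. With the arrays scaled by their medians in place of the 75th percentile, the counts were 20 higher and 3 lower, against 33% and 8.4% of all genes, and the medians were 1.03 for the 38 genes and 0.69 for all. By quantile normalization the medians were 0.20 and 0.25, and by cyclic loess 0.23 and 0.20, so the lead of these genes over all genes depends on the scaling.

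The GTPases that type II interferon induces, which attack pathogen vacuoles, all lay above 0 in the spleen, except Irgm1 at -0.07 under quantile normalization. Of these 5 genes, 3 were at least 2-fold higher, against 19.8% of all genes, and their median was 1.19. Gbp3 had signals of 4878 and 3644 in marrow KO and WT and of 22928 and 6850 in spleen KO and WT. It was the brightest on spleen KO even before scaling, and was 6.25-fold higher there than on spleen WT, a difference of 2.64. Its probe lies at chr3:142236072-142236131 on mm9. Iigp1, also known as Irga6, had signals of 714, 363, 1041 and 454 in the same order and differed by 2.10 in the spleen. Spleen KO was the brightest array for it as well. Igtp, or Irgm3, a regulator of these GTPases, differed by 1.19, Gbp2 by 0.87 and Irgm1 by 0.59. By quantile normalization Igtp was at 0.49 and by cyclic loess at 0.57, under 2-fold.

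Of the 4 sensors of foreign RNA and DNA, 3 were at least 2-fold higher in spleen KO, against 19.8% of all genes. Ifih1 had spleen signals of 795 in KO and 509 in WT and differed by 1.54. Dhx58, or LGP2, which tunes the other RNA sensors, had 2491 and 1643 and differed by 1.5. Zbp1, a sensor of Z-form nucleic acid that can trigger necroptosis, had 3994 and 3640 and differed by 1.03. By quantile normalization Zbp1 was at 0.57 and by cyclic loess at 0.74, under 2-fold. Ddx58, or RIG-I, the sensor of triphosphate RNA ends, went the other way by -0.74. The probes of this group disagreed, since 1 of the 3 other Ddx58 probes lay above 0, and the other Ifih1 probe was at least 2.13-fold lower in spleen KO, with Ifih1 at -0.56 by the median over its probes.

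In the Ifit and Isg15 group every gene lay above 0 in the spleen at its brightest probe. Of 5 genes, 2 were at least 2-fold higher, against 19.8% of all genes, and Ifit3 was at 0.97 by quantile normalization. Ifit2, however, was at least 9.58-fold lower in spleen KO at its other probe and stood at -1.34 by the median over its probes. Ifit1, which binds viral RNA with an unmethylated cap, had signals of 190 and 127 in marrow KO and WT and of 569 and 264 in spleen KO and WT and differed by 2.01. It was brightest on spleen KO and dimmest on marrow WT. Ifit3, its partner, had spleen signals of 3693 in KO and 2636 in WT and differed by 1.39, and its near copy Ifit3b, read by another probe, by 1.06, so how much of each copy a probe reads is uncertain. Ifit2, which acts with both, was at 0.68, Usp18, which strips Isg15 from proteins and damps the type I receptor, at 0.47, and Isg15 at 0.24.

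Of the 11 other effectors, 5 were at least 2-fold higher in spleen KO and 0 lower, against 19.8% and 14.4% of all genes. Bst2, or tetherin, which holds budding virus at the membrane, had signals of 8849 and 7474 in marrow KO and WT and of 11589 and 6288 in spleen KO and WT and differed by 1.78. Rsad2 differed by 1.47, Ifi44 by 1.1, Mx2 by 1.05 and Parp14, an ADP-ribosyl transferase, by 1.02. By quantile normalization Mx2 was at 0.89 and Parp14 at 0.32, and by cyclic loess at 0.96 and 0.34, all under 2-fold. The remaining 6 genes lay within 2-fold. They were Trim25, the ubiquitin ligase of the RIG-I pathway, at 0.63, Trim21, a cytosolic antibody receptor, at 0.27, Mx1 at 0.23, Eif2ak2, the kinase PKR that stops translation, at 0.08, Ifi35 at 0.01 and Xaf1, an antagonist of a caspase inhibitor, at -0.15.

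The 5 genes that were lower in spleen KO include 2 of the 5 transcription factors. Irf7, which drives the type I interferon genes, had signals of 212 and 295 in marrow KO and WT and of 138 and 1036 in spleen KO and WT and differed by -2.01. Stat2, the partner of Irf9, had signals of 1351, 1594, 924 and 4570 in the same order and differed by -1.41. For both genes the level on spleen WT stood above that on the other 3 arrays. Spleen KO had the dimmest signal before scaling, but not the lowest level. The levels of Irf7 and Stat2 were -1.92 and 0.83 on spleen KO and -2.25 and 0.42 on marrow KO. Irf9 differed by -0.45, Irf2, which largely opposes Irf1, by 0.67 and Irf1 by 0.91. Of the oligoadenylate synthetases, Oas3 differed by -2 and Oas1b, with signals of 82.9, 150, 61.6 and 283, by -1.30. No oligoadenylate synthetase was at least 2-fold higher in the spleen, and Oas2 and Oas1a lay at 0.06 and -0.03. Tap1 differed by -1.54, and Cxcl10 lay at 0.71.

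In the spleen too, markers of other cells and of handling moved on the same arrays. Of all genes, 19.8% were at least 2-fold higher and 14.4% at least 2-fold lower in spleen KO. Of 13 macrophage and monocyte markers, 7 were at least 2-fold higher and 1 lower in spleen KO, and their summed level was 145 against 57.3. Of 10 measured neutrophil markers, 6 were higher and 1 was lower, with summed levels of 145 and 11.2, and the granule protease Elane was not above background on either spleen array. Of 10 stress and dissociation genes, 7 were higher and 1 was lower, with summed levels of 120 and 63.1, and the heat shock gene Hspa1a differed by 7.25. Plasmacytoid dendritic cell markers summed to 395 and 271 with 3 of 12 higher and 2 lower. Ly6d, with spleen signals of 150200 in KO and 146100 in WT, weighed most in these sums, and Siglech was at 0.18. T and NK cell markers summed to 12.7 and 11.8 with 2 of 13 higher and 3 lower. The counts of the plasmacytoid dendritic cell and the T and NK cell lists were close to the shares of all genes. Of 10 B cell markers, 2 were at least 2-fold higher and 5 lower in spleen KO, with a median of -0.77, although their summed level was 926 against 651. Their part in the values above was not tested. The probe for 18S ribosomal RNA (Rn18s) differed by -7.71 in the spleen and by -2.43 in the marrow.

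The difference also moved with brightness in the spleen. Genes were put in 4 groups of equal size by mean level, and in the brightest group the median difference of all genes was 0.73, with 36.5% at least 2-fold higher. The 10 interferon-induced genes of that group lay at a median of 0.79, and 4 were higher and 0 lower. In the group next to it, with 20 of the 38 genes, the medians were 0.26 for these and 0.17 for all genes, and 7 genes were higher and 2 lower against 20.5% and 15.5% of all genes. In the group below, with 8 of the 38 genes, they were 0.46 and -0.05, with 2 higher and 3 lower against 12.9% and 20.3%. The dimmest group held no interferon-induced gene.

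Set side by side, the tissues shared few genes past 2-fold in the same direction, about as few as among all genes. In KO, 0 of the 38 genes passed 2-fold upward in both tissues, as 2.33% of 18983 genes measured in both did, and 1 passed it downward in both, as 2.04% did. That gene was Tap1. Oas3 was the gene past 2-fold in opposite directions. That happened in 0.622% of all genes. In sign alone, 21 of the 38 genes lay above 0 in both tissues, as 30.3% of all genes did, and 8 below 0 in both, as 29.6% did. Another 3 lay above 0 in marrow only, as 11.8% did, and 6 in spleen only, as 24.5% did. Within 2-fold in both lay 15 of the 38 genes and 59.5% of all genes. At their brightest probes, Ifih1, Iigp1, Rsad2 and Ifi44 lay between 0.83 and 0.997 in marrow and past 2-fold in spleen. The other Rsad2 probes lay at -0.08 and 0.06 in marrow and at 0.19 and 0.55 in spleen. The other Ifi44 probe lay at 0.65 in each tissue, and the other Ifih1 probe was at least 2.13-fold lower in spleen KO. With the arrays scaled by their medians or by cyclic loess, 3 genes were at least 2-fold higher in both tissues.

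**Figure D2:**
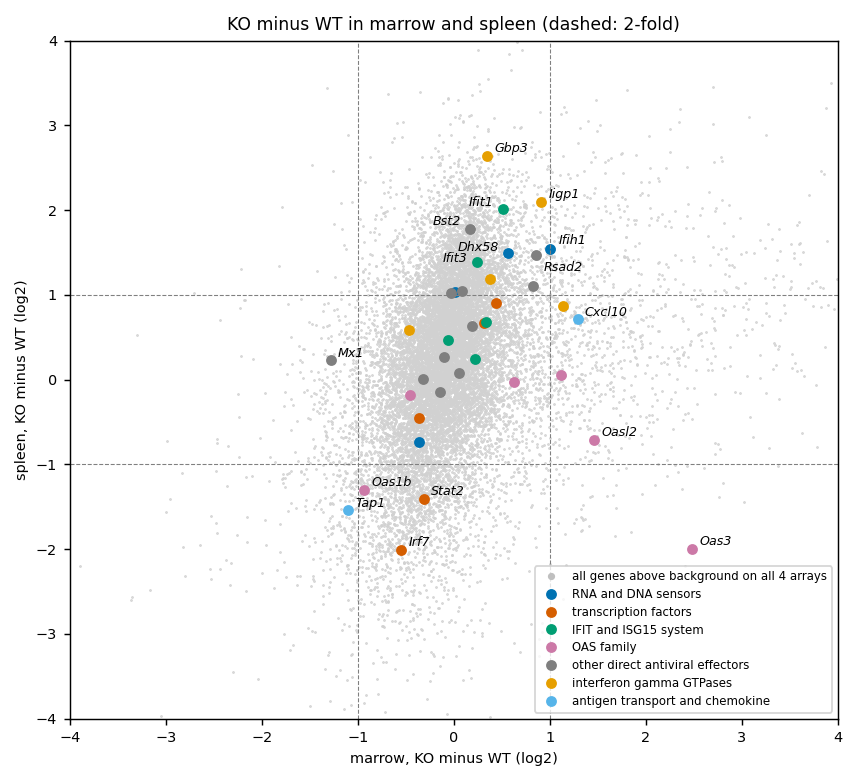
Difference of KO minus WT on the log2 scale in marrow (horizontal) and in spleen (vertical), with 1 coloured point for each of 38 interferon-induced genes by role and grey points for all genes above background on all 4 arrays; dashed lines mark 2-fold. The upper right field beyond both lines is empty of coloured points, Tap1 is in the lower left field, and Oas3 at 2.48 and -2 is in the lower right.

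The fit over both tissues with limma, which takes marrow and spleen as repeats of 1 genotype effect and has 1 residual degree of freedom, called 0 of the 38 genes at an adjusted p of 0.05 (Benjamini-Hochberg over all 22059 genes tested), and 10 of all genes, or 0.0453%. At an unadjusted limma p of 0.05, 4 of the 38 genes and 2495 of all 22059 genes passed. The 38 genes thus passed no more often than genes at large. The 4 genes were Iigp1, Tap1, Ifih1 and Gbp3. Iigp1 had a mean difference of 1.5 with a standard error (SE) of 0.57 and a limma adjusted p of 0.352, the smallest of the 38. Tap1 had -1.32 with an SE of 0.54 and a limma adjusted p of 0.391. For Ifih1 the values were 1.27, 0.54 and 0.413, and for Gbp3 1.5, 0.64 and 0.415. With normexp background correction the fit called Gbp3 at a limma adjusted p of 0.0358. With 1 residual degree of freedom, a p that misses the threshold does not show that levels were alike. The design leaves no degree of freedom for the difference of the genotype effect between marrow and spleen, which was not tested.

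The spleen was set against the marrow in each genotype. In WT, 23 of 38 genes were at least 2-fold higher in spleen and 0 lower, with a median of 1.09 and 36 genes above 0, while 15.5% of the 21447 genes measured passed 2-fold upward and 15.7% downward. In KO, 24 of 38 were higher and 1 lower, 35 genes lay above 0 and the median was 1.28, against 15.7% of 20320 genes higher and 13.9% lower. In both genotypes 17 of the 38 genes were higher, where 6.04% of 19707 genes were. Both comparisons also compare slide 1 with slide 2. They have no replicates and were not tested. In KO the Y-linked genes named above were above background in marrow and not in spleen, and the part of sex was not tested.

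In WT the largest difference was that of Cxcl10 at 3.33, followed by Ifit3 at 2.47, Oasl2 at 2.08, Oas3 at 2.06, Oas1a at 1.96 and Zbp1 at 1.95. Irf7 and Stat2 were at 1.80 and 1.51 in WT and at 0.34 and 0.41 in KO. Trim25 at -0.56 and Bst2 at -0.26 were the 2 genes below 0 in WT. In KO the largest differences were those of Ifit3 at 3.62, Gbp3 at 3.19, Zbp1 at 2.97, Cxcl10 at 2.74, Mx1 at 2.58 and Ifit1 at 2.54, and Oas3 was the gene that was lower, by -2.43. The 6 genes past 2-fold in WT and not in KO were Oas2, Oas3, Oasl2, Irf7, Stat2 and Ddx58, where 7.71% of all genes were. The 7 past 2-fold in KO and not in WT were Dhx58, Bst2, Ifi35, Gbp3, Irgm1, Iigp1 and Parp14, where 9.64% of all genes were. The tissues also differed in the markers of other cells. In spleen, 9 of 13 macrophage and monocyte markers were higher than in marrow in WT and 8 in KO. For T and NK cells 9 and 5 of 13 markers were higher, and 10 and 11 of 11 neutrophil markers were lower. The part of these markers was not tested. Over all genes, 15.5% were higher and 15.7% lower in WT, and 15.7% higher and 13.9% lower in KO.

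**Figure D3:**
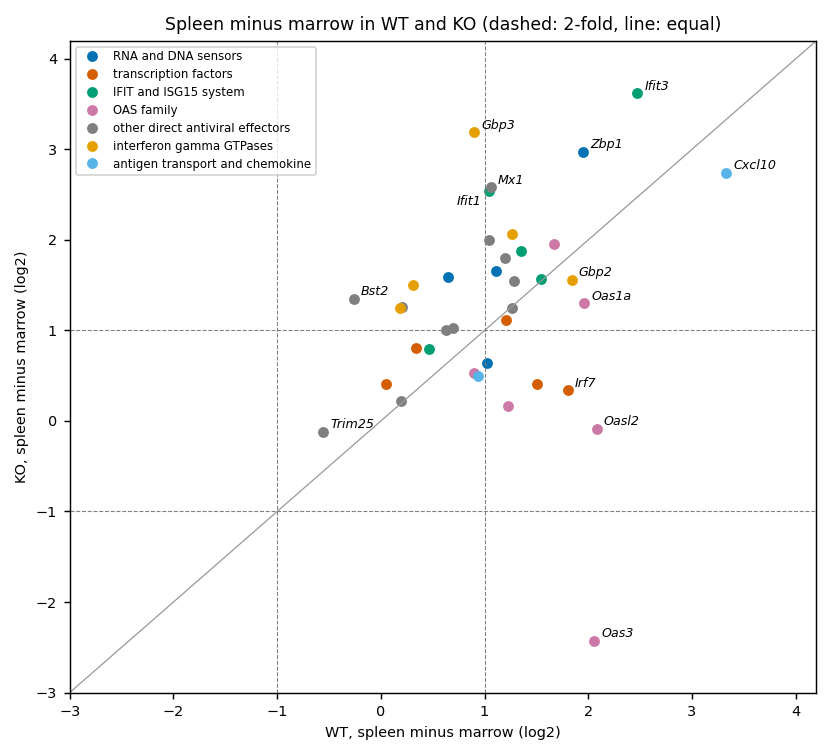
Difference of spleen minus marrow on the log2 scale in WT (horizontal) and KO (vertical) for 38 interferon-induced genes, coloured by role, with dashed lines at 2-fold and a line of equal differences. Most points lie above 0 on both axes, Gbp3 at 0.90 and 3.19 lies above the line of equality, and Oas3 at 2.06 and -2.43 lies far below it.

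Where a gene had several probes, the spleen difference depended on the place of the probe. The 39 genes had 58 probes in all, and 14 genes had more than 1. Probes of 1 transcript are read from the same RNA. The probes of Ddx58 and Ifit2 carry this observation. Those that had values below 0 in the spleen are given here 5′ to 3′ with the base of the transcript where they start and their place on mm9, and the last probe of each gene lies at chr4:40151133-40151192 and at chr19:34650244-34650303. None of their letters are in capitals, since no part of a probe is singled out.
Ddx58 probe at base 492, chr4:40176528-40176587, strand minus: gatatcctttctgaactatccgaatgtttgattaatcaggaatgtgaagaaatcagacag
Ddx58 probe at base 2251, chr4:40156918-40156977, strand minus: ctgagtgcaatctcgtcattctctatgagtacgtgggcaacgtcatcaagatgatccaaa
Ddx58 probe at base 2851, chr4:40152842-40152901, strand minus: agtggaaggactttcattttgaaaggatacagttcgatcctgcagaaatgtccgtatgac
Ifit2 probe at base 1231, chr19:34648307-34648366, strand plus: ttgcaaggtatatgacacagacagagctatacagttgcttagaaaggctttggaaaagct

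The 4 probes of Ddx58 differed in the spleen by -2.09 at base 492, -0.74 at base 2251, -0.66 at base 2851 and 0.42 at base 4560. In the marrow the same probes lay between -0.82 and 0.02. The probe at base 492 had spleen signals of 30.4 in KO and 242 in WT, and the probe at base 4560 had 590 and 822. Ifit2 had 2 probes. At base 1231 its signal was 15.8 on spleen KO, not well above background, and 302 on spleen WT, so it was at least 9.58-fold lower in KO, whereas at base 3168, the brightest probe, it was higher by 0.68. For a lower bound of this kind, the dim array was given its lowest level well above background, or the probe's own level where that was higher.

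Other genes followed the same order along the transcript. Ifih1 was at least 2.13-fold lower in spleen KO at base 1855 and higher by 1.54 at base 3593. Irf1 differed by -0.73 at base 587 and by 0.91 at base 1961, and Rsad2 by 0.19, 0.55 and 1.47 at bases 519, 888 and 3455. Parp14 was at 0.00 at base 216, at least 8.8-fold lower at base 3779 and at 1.02 at base 7163, so its order was not even. Of the 8 genes with 2 or more probes of 1 transcript above background on all 4 arrays, 7 had a higher spleen difference at the last probe than at the first, with a median step of 0.92, and 4 were over 2-fold apart. Over 3774 transcripts of all genes the median step was 0.44, with 70.1% above 0 and 40.7% over 2-fold apart, at a median distance of 1090 bases against 2124 for the 8 genes. In the marrow the median steps were 0.22 and 0.13, and 0 of the 8 genes and 5.96% of all transcripts were over 2-fold apart. The sources used here give no RNA integrity, and its part in the spleen differences was not tested.

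The probes used for the lower genes read other places. The Irf7 probe, at chr7:148450664-148451014 on mm9, starts at base 773 of the transcript and spans an intron in the genome, and the Tap1 probe starts at base 1696 and the Stat2 probe at base 3677. The other Oas3 probe, at base 2940, had dim signals of 27.5 and 19.8 in marrow KO and WT. In the spleen its signals were 14.6 in KO, not well above background, and 49.7 in WT. Its difference was 0.41 in marrow, less than 2-fold, and the level on spleen WT exceeded that on spleen KO by a factor of 1.57 or more. The brightest Oas3 probe was also dim on spleen KO, at 25.4. The signs were the same at both probes, but signals this dim at base 2940 do not settle a direction.

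**Figure D4:**
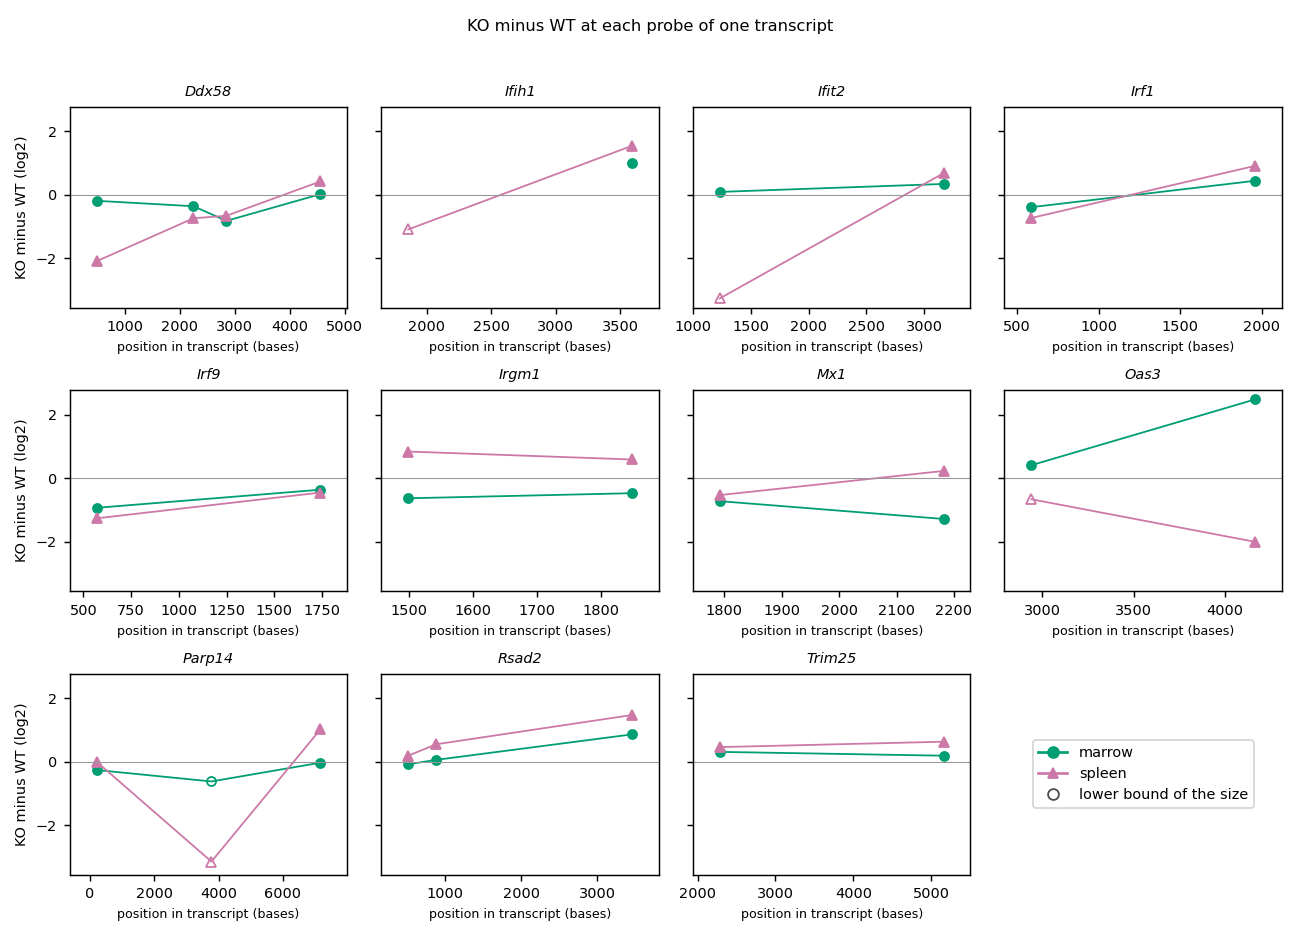
Difference of KO minus WT on the log2 scale at each probe of 1 transcript, against the base of the transcript where the probe starts, for 11 interferon-induced genes with 2 or more such probes; green circles are marrow and pink triangles spleen, and open symbols are lower bounds of the size. The spleen line climbs from -2.09 to 0.42 along Ddx58, while the marrow points stay between -0.82 and 0.02.

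The rest of the pathway was read from lists of ligands, receptors, signal transducers, negative regulators and other induced genes. Of 9 interferon genes on the array 5 were above background on all 4 arrays, and Ifnb1, Ifna4, Ifne and Ifnk on none. Ifng, type II interferon, had signals of 95.96 and 209.6 in marrow KO and WT and of 86.5 and 317.1 in spleen KO and WT, and differed by -1.20 in marrow and by -0.97 in spleen. In the spleen 4 of 5 ligand genes were at least 2-fold higher, against 19.8% of all genes. Ifna9 was at 1.78 and Ifna5 at 1.54, and the spleen signals of the 4 genes were dim, at 33.09 to 146.7. Before scaling, Ifna2 had close spleen signals of 66.29 in KO and 58.45 in WT, as had Ifnl3 with 40.2 and 36.77. In the marrow 0 ligand genes were higher and 1 was lower, against 8.35% and 4.9% of all genes.

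Of 9 receptor chains and Janus kinases, 1 was higher and 1 lower in marrow KO, against 8.35% and 4.9% of all genes. In spleen KO 4 were higher and 1 lower, against 19.8% and 14.4% of all genes. Tyk2, the kinase of the type I receptor, had signals of 651.6 and 1392 in marrow KO and WT and of 358.2 and 2808 in spleen KO and WT, and was lower in both tissues, by -1.17 and -2.07. Spleen WT was the brightest array for it, as it was for Irf7, Stat2 and Tap1. Ifngr1, the ligand-binding chain of the type II receptor, differed by 1.97 and Jak2 by 1.45 in the spleen. Ifnlr1, the receptor chain for type III interferon, differed by 3.12 in marrow, with signals of 3194 and 349.4. In the mouse this receptor is found on neutrophils, whose markers were higher on the same array, and their part was not tested.

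Of 19 signal transducers, 1 was higher in marrow KO (Stat4, 1.09), against 8.35% of all genes, with a median of -0.15 in marrow. In the spleen 1 was higher (Tbk1, the kinase that activates Irf3, 1.12) and 5 were lower, with a median of -0.16. Of all genes, 19.8% were higher and 14.4% lower in spleen KO. Ikbke, a relative of Tbk1, was at -1.59 and Irf5 at -1.49. Of 10 negative regulators, Socs3, which blocks Janus kinases, was higher in both tissues, by 1.15 and 1.58. In the spleen 5 negative regulators were higher and 2 lower, beside the same shares of all genes. Ptpn2, a phosphatase that damps Janus kinases, was at 2.07, and Pias4 and Pias3, which hold back Stat proteins, were at -3.27 and -2.55.

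Among 32 further induced genes above background, 7 passed 2-fold upward in marrow KO and 0 downward, against 8.35% and 4.9% of all genes. Their marrow median was 0.14, and that of all genes was -0.06. In spleen KO 7 passed 2-fold upward and 4 downward, close to the 19.8% and 14.4% of all genes. The spleen medians were 0.32 for these genes and 0.27 for all. Ifitm3 and Ifitm1, which stop viruses from fusing with endosomes, were at 2.64 and 2.32 in marrow and at 0.25 and 0.36 in spleen. Cxcl9, a chemokine of the same receptor as Cxcl10, was at 2.04 and Gbp6 at 1.56 in spleen, and Ube2l6, the conjugating enzyme of Isg15, was at -1.99 and Pml at -1.51. Rtp4 was higher in both tissues, by 1.02 and 1.31.

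**Figure D5:**
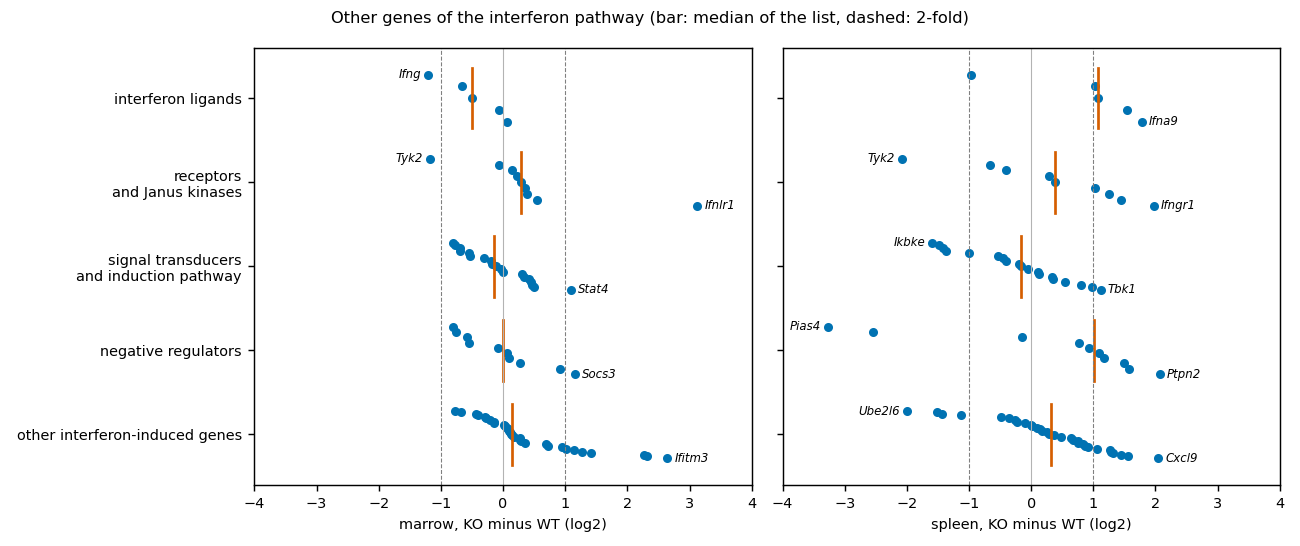
Difference of KO minus WT on the log2 scale in marrow (left) and spleen (right) for genes of the interferon pathway outside the 39, in 5 lists, with 1 point per gene, an orange bar at the median of the list, dashed lines at 2-fold and names on the outermost genes past 2-fold. Tyk2 lies left of the dashed line in both panels, and Pias4 at -3.27 is the lowest point in the spleen.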

How the data were processed

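The deposited scanner files hold spot intensity on a linear scale. According to the file headers the authors obtained it with Agilent Feature Extraction 10.5.1.1, from probes placed on mm9, after background correction, and the headers record no scaling between arrays. The deposited series matrix equalled this intensity at all 45018 spots (tolerance 0), so it is linear, without centring or direction. Its column medians were 85.4, 82.7, 37.9 and 93.0 for marrow KO, marrow WT, spleen KO and spleen WT. Per the labels' protocols, RNA was prepared with a Qiagen RNeasy kit and the single dye was Cy3. Groups came from the labels, and 0 columns belonged to no sample.

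Control spots were left out, as were 72 to 85 outlier spots per array, and 0 spots were saturated. From 43379 gene spots, log2 signals minus the array's 75th percentile were averaged over spots of a probe. Probes were named through their accession (25097 of 41174), a current symbol (6333) or the file's own name (9744), with the RefSeq table of GRCm38.p6 used for names and promoters only. A gene counted as measured in a comparison if Feature Extraction marked most spots of its probe as well above background on at least 1 of the arrays compared. All 39 genes kept the same brightest probe when the mean was taken on the linear scale, and none changed it without spleen KO.

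Counts of genes at least 2-fold apart have no test, since each group is 1 array. The test was limma 3.58.1 in R 4.3.3 with tissue and genotype as terms, with Benjamini-Hochberg adjustment over 22059 genes and a threshold of 0.05, and was tested on simulated data. It treats both tissues as independent, which the labels do not state. Figures and counts were made with Python 3.11.15 (pandas 2.3.3, matplotlib 3.10.9). The 39 genes, their roles, the other lists and the rule for named genes were chosen with earlier results of these data known. By that rule the signals on all arrays are given for genes past 2-fold in both tissues or among the 5 highest or lowest of a tissue, and genes outside the 39 are named where past 2-fold in both tissues or among the 2 highest or lowest of their list. Alternatives covered scaling, background correction, the choice of probe, the filter, the fold and the limma settings.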

Additional observations from a re-analysis of the deposited data

Results flagged for a closer look

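Oas3 was marked for a closer look because its array pairs moved in opposite directions past 2-fold: KO minus WT was 2.48 in marrow and -2 in spleen on the log2 scale. Each direction rests on 1 array against 1 array, and the difference between the tissues was not tested. Under the alternatives the marrow value ranged from 1.45 to 2.71 and the spleen value from -2 to -0.64, with the smaller size in the spleen under normexp background correction.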

How the results depend on the processing

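No paired analysis was possible because the labels give no replicate numbers and each group has 1 array, and leaving out an array leaves no residual degree of freedom. Of 532 values of the 38 genes under the alternatives, 18 changed sign, 5 by the probe median, 5 by quantile normalization and 4 by cyclic loess. Of these, 2 were past 2-fold on either side: by the probe median Ifih1 in spleen was at -0.56 and Ifit2 in spleen at -1.34. Marrow counts higher (5) were 8 by cyclic loess and 10 at 1.5-fold; marrow counts lower (2) were 0 by normexp and 1 by the probe median. Spleen counts higher (13) were 8 by quantile normalization, 20 by median scaling, 8 by the probe median, 20 at 1.5-fold and 8 relative to the median gene, a choice made after seeing the data; spleen counts lower (5) were 3 by median scaling and 3 by normexp. Genes higher in both tissues (0) were 3 by cyclic loess, 3 by median scaling and 6 at 1.5-fold, and genes lower in both (1) were 0 by normexp and 2 at 1.5-fold. Oas3 was no longer 2-fold lower in KO spleen than marrow by normexp (0 genes). The spleen median (0.61) was 0.20 by quantile normalization, 0.23 by cyclic loess, 1.03 by median scaling and 0.17 by the probe median, where the all-gene median was 0.25, 0.20, 0.69 and 0.09. limma called 1 of the 38 genes by normexp, Gbp3 at a limma adjusted p of 0.0358, and 0 under the other settings, where the smallest limma adjusted p of the 38 ranged from 0.0925 to 0.941. Over all genes, limma called 10, and 2 by quantile normalization, 0 by cyclic loess, 443 by median scaling, 629 by normexp, 593 with no filter, 449 for genes above background on all arrays, 528 with an intensity trend and robust prior and 0 with no tissue term. The share of higher among all genes past 2-fold moved from 57.9% to 79.7% (median scaling), 69.9% (normexp) and 47.2% (probe median) in spleen, from 63% to 74.9% (cyclic loess), 75.2% (normexp) and 52% (no filter) in marrow, and with median scaling from 49.6% to 38.9% in the WT tissues and from 53.1% to 65.1% in KO. Every other count past 2-fold and median KO minus WT difference of the 39 genes as a whole stayed within 1.5 times its value or the spread between repeated spots. Counts of single families, of signs and of promoter subsets, and the medians between tissues, were not followed in this way. By the probe median, Zbp1 was the only sensor at least 2-fold higher in spleen KO, and Mx2 and Bst2 were the only other effectors. Dim probes limit bounds, such as those of Ifit2 and Parp14.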

Other observations

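Genes of the pathway outside the 39 also differed between the tissues. Of 32 further interferon-induced genes above background, 17 were at least 2-fold higher in spleen than in marrow in WT and 0 lower, with a median of 1.06, and in KO 19 were higher and 5 lower at a median of 1.11. Over all genes, 15.5% were higher and 15.7% lower in WT, and 15.7% higher and 13.9% lower in KO. Of 19 signal transducers, 8 were higher and 1 lower in WT, and 6 higher and 2 lower in KO. Tlr7, the endosomal sensor of single-stranded RNA, was at 3.03 in WT and 3.55 in KO, and Traf6 at -1.42 and -1.19. Socs1, which blocks Janus kinases, was at -2.83 in WT and -1.47 in KO, and Ifnlr1 at -0.45 and -4.25. These genes were chosen after their values were seen. Slide and tissue cannot be told apart here, and no difference was tested.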
